A study of Mus musculus with 10 samples.

Results

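Integrins and laminins are the receptor and ligand sides of cell attachment to the basement membrane. An integrin is a pair of transmembrane chains, 1 alpha and 1 beta subunit, and the pair decides what the cell binds: laminin, collagen, proteins with an RGD motif (arginine, glycine, aspartate), or receptors on other cells. A laminin is a cross-shaped trimer of 1 alpha, 1 beta and 1 gamma chain, secreted and assembled into the sheet under epithelia and around vessels. Gene symbols of the form Itga, Itgb, Lama, Lamb or Lamc followed by the subunit's number or letter gave the 36 genes described here, of 35288 in the expression table: 26 integrin subunits (18 alpha, 8 beta) and 10 laminin chains. Of these, 29 had a mean of at least 1 TPM over all libraries and were tested. The other 7 (Itga2, Itga11, Itgb8, Itgae, Itgad, Lama1 and Lamc3) fell below that level, and their values are given without a test. TPM is a share of the library's transcripts, corrected for gene length, so levels can be compared between genes.

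RNA sequencing was done on mouse tumors that model small cell lung cancer, a neuroendocrine cancer known for early spread, often to the liver. All animals were RPR2 mice, whose tumors lack the tumor suppressors Rb1, Trp53 and Rbl2. One genotype is labelled RPR2 alone, and in the other, RPR2;Nfibf/f, the tumors also carried floxed alleles of Nfib, a transcription factor gene. These are called RPR2 and Nfib-floxed below. Lung tumors came from 3 RPR2 mice (JHK1373, JHK1394 and JHK1548) and 3 Nfib-floxed mice (JHK1398, JHK1399 and JHK997). Liver metastases came from 2 RPR2 mice (JHK1373 and JHK1394) and 2 Nfib-floxed mice (JHK1398 and JHK1399), so 4 of the 6 mice gave both tissues. Tumors were macrodissected at morbidity, so each library holds tumor cells with whatever tissue lay around and between them, and fewer cells of a type cannot be told apart from less RNA per cell. The labels do not say how the alleles were recombined, the age of the mice, or which part of Nfib is floxed.

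The libraries differed in markers of tumor cells and of other cell types. Every marker of the neuroendocrine tumor list was above 0 in every library. List sums were 3210 to 3719 TPM in RPR2 lung tumors and 3307 to 3406.5 TPM in Nfib-floxed ones. They were 1926 and 2284 TPM in RPR2 metastases and 2139 and 3695 TPM in Nfib-floxed ones. The lung tumors of JHK1394 and JHK1398 stood apart by summed markers of normal airway cells. Their sums of 7 club and ciliated cell markers were 59256 and 55061 TPM, against 1519 to 12380 TPM in the other lung tumors. Scgb1a1 alone gave 54787 and 50157 TPM of these sums, and 1358 to 9650 TPM in the other lung tumors. Scgb3a2, Cyp2f2 and Tppp3 were also highest in these 2 tumors. Scgb3a1 and Ccdc153 instead peaked in the JHK1548 lung tumor, and Foxj1 in JHK1394 lay inside the range of the others. Sums of 11 hepatocyte markers were 8907 and 9059 TPM in the RPR2 metastases, but 98.5 and 2607 TPM in the Nfib-floxed ones. Nfib was at 28.3 to 118 TPM in RPR2 lung tumors and 26.5 to 38.6 TPM in Nfib-floxed ones. The library labelled RPR2 lung tumor of JHK1394 therefore lay inside the Nfib-floxed range. In metastases Nfib was at 62.8 and 643 TPM (RPR2) and 46.1 and 41.3 TPM (Nfib-floxed). A whole-gene value does not check a floxed allele, since reads outside the removed part still count.

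Few integrin subunits had high RNA levels in these libraries. Itgb1, the beta subunit that pairs with the largest number of alpha subunits, was the only gene of the 36 with a mean of at least 100 TPM. It was at 205, 229 and 196 TPM in the RPR2 lung tumors of JHK1373, JHK1394 and JHK1548, and at 90.6, 237 and 196 TPM in the Nfib-floxed lung tumors of JHK1398, JHK1399 and JHK997. It was at 133 and 139 TPM in the RPR2 metastases of JHK1373 and JHK1394, and at 199.95 and 137 TPM in the Nfib-floxed metastases of JHK1398 and JHK1399. Libraries are named in this order from here on. The JHK1398 lung tumor was the lowest of all, and both RPR2 metastases lay under every RPR2 lung tumor. Itgb1 made up 44.6 to 86.3% of the TPM of all 8 beta subunits. In all, 10 of the 36 genes had a mean of at least 10 TPM and 19 lay between 1 and 10 TPM.

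**Figure D1:**
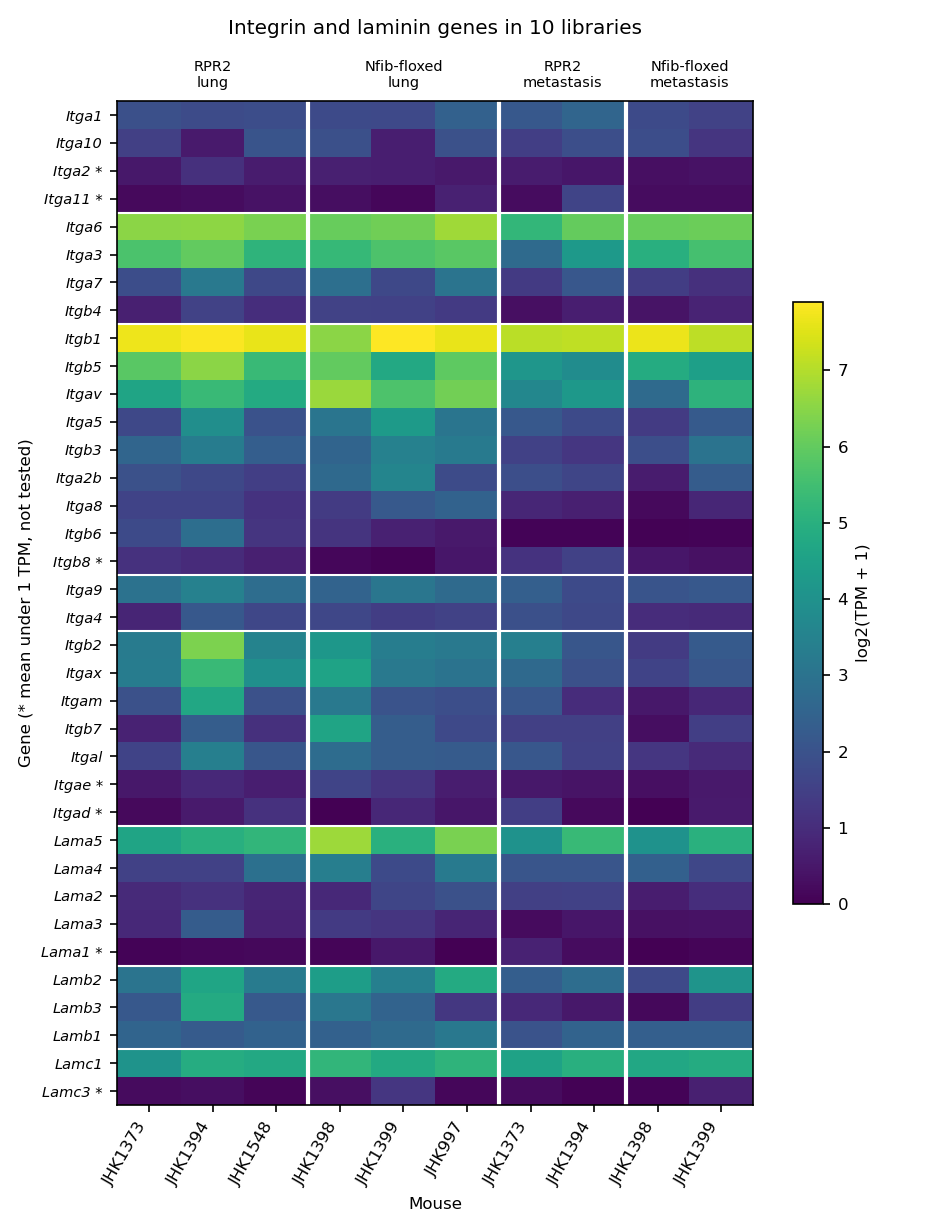
Heat map of log2(TPM + 1) for the 36 integrin and laminin genes (rows, grouped by role) in the 10 libraries (columns, by group and mouse); asterisks mark the 7 genes with a mean under 1 TPM. Itgb1 is bright in every column, Lamb3 runs from 27.3 TPM in the RPR2 lung tumor of JHK1394 to 0.114 TPM in the Nfib-floxed metastasis of JHK1398, and 4 of the 7 leukocyte integrins (Itgb2, Itgax, Itgam and Itgal) are brightest in the lung tumor of JHK1394.

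Laminin-binding subunits came next. Itga6, which pairs with Itgb1 or Itgb4 as a laminin receptor, was at 91.3, 93.6 and 78.2 TPM in RPR2 lung tumors and 65.7, 71.0 and 108 TPM in Nfib-floxed ones. In metastases it was at 36.3 and 64.9 TPM (RPR2) and 66.0 and 68.7 TPM (Nfib-floxed). The RPR2 metastases were the lowest 2 libraries, although that of JHK1394 lay just under the next library. Itga6 exceeded Itga3, the other main laminin-binding alpha subunit, in all 10 libraries. The ratio was 1.39 to 2.27 in 8 of them and 6.46 and 3.58 in the RPR2 metastases of JHK1373 and JHK1394. Itgb4, the partner of Itga6 in hemidesmosomes, was low throughout, at 0.255 to 1.96 TPM, and the ratio of Itgb1 to Itgb4 was 46.7 to 616. Itga7, a laminin-binding subunit best known from muscle, was at 1.13 to 8.05 TPM.

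Most of the other subunits were low. Among collagen-binding subunits, Itga1 was at 2.77, 2.47 and 2.64 TPM in RPR2 lung tumors, 2.41, 2.33 and 4.53 TPM in Nfib-floxed lung tumors, 3.49 and 4.92 TPM in RPR2 metastases and 2.42 and 1.93 TPM in Nfib-floxed ones. Both RPR2 metastases were above the RPR2 lung tumors, but the JHK997 lung tumor lay between them. Itga10 reached 0.480 to 3.12 TPM, while Itga2 and Itga11 had means of 0.517 and 0.432 TPM. Itga9, a subunit that binds tenascin and related ligands with Itgb1, was at 6.82, 10.01 and 6.09 TPM and at 4.72, 7.4965 and 5.58 TPM in the lung tumors. It was at 4.28 and 2.40 TPM in RPR2 metastases and 3.14 and 3.52 TPM in Nfib-floxed ones, all under the lowest lung tumor. Itga4, which binds VCAM-1 and fibronectin, was at 0.754 to 3.52 TPM. Among RGD-binding subunits beyond those described below, Itga5 (the fibronectin receptor subunit) was at 1.60 to 18.6 TPM, Itgb3 at 1.38 to 10.1 TPM and its platelet partner Itga2b at 0.529 to 10.98 TPM. Itga8 was at 0.161 to 4.56 TPM.

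Metastases were compared with lung tumors of the same genotype by limma on log2(TPM + 1), with Benjamini-Hochberg adjustment over all 15503 genes tested. Changes below are log2 differences ± standard error on that scale, which understates the change of low genes. In RPR2 mice 2 of the 29 genes passed an adjusted p under 0.05, Itga3 and Itgb5, and both were lower in metastases. Of all genes tested, 5.61% passed in this comparison and 3.57% passed as lower. The other 27 did not pass, 6 of them with an unadjusted p under 0.05. With the 2 called genes, 8 of the 29 had such a limma p, as did 2919 of the 15503 genes tested. The 2 tissues of 1 mouse entered the fit as independent samples, and a group of metastases holds only 2 libraries.

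Itga3 (ENSMUSG00000001507, GRCm38 chromosome 11, 95044474 to 95076801, minus strand) encodes the alpha subunit of an epithelial receptor for laminins. It was at 50.05, 63.4 and 34.4 TPM in RPR2 lung tumors and at 5.62 and 18.1 TPM in RPR2 metastases. The metastases were both below the lowest lung tumor. The difference was -2.12 ± 0.47, 4.34-fold lower (limma adjusted p = 0.0247, n = 3 and 2). Without the RPR2 metastasis of JHK1373, the lowest library, the difference was -1.35 with an adjusted p of 0.232. In the Nfib-floxed mice Itga3 was at 38.2, 51.0 and 57.4 TPM in lung tumors and at 30.3 and 46.3 TPM in metastases, groups that overlap (-0.35, 95% interval -1.38 to 0.68, and -0.65 to -0.056 over the alternatives).

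Itgb5 (ENSMUSG00000022817, chromosome 16, 33829665 to 33949338, plus strand) pairs with Itgav as a receptor for vitronectin. It was at 57.5, 91.7 and 39.7 TPM in RPR2 lung tumors and at 16.6 and 13.2 TPM in RPR2 metastases, again without overlap. The difference was -1.94 ± 0.46, 3.82-fold lower (limma adjusted p = 0.0339). In Nfib-floxed mice it was at 63.4, 26.2 and 60.6 TPM in lung tumors and 28.0 and 21.0 TPM in metastases. The JHK1399 lung tumor lay between the 2 metastases, and the difference of -0.91 (95% interval -1.93 to 0.10) had an adjusted p of 0.571 by limma.

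**Figure D2:**
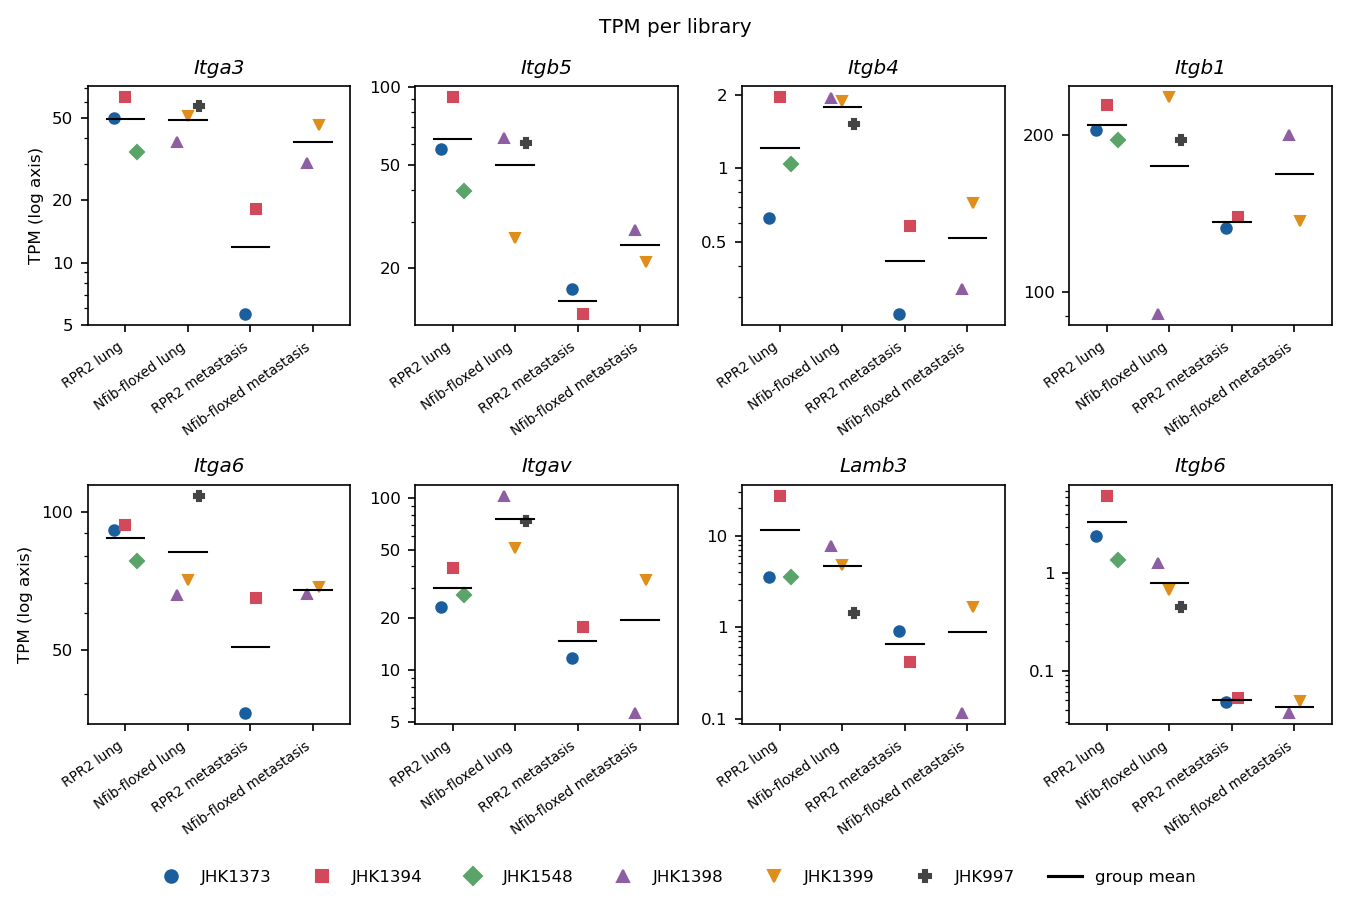
TPM per library (log axis, with its own range in each panel) for 8 integrin and laminin genes in the 4 groups; symbols and colors mark the mouse and black lines the group means. For Itga3 and Itgb5 both RPR2 metastases lie below all 3 RPR2 lung tumors, while the Nfib-floxed metastases reach into the range of the Nfib-floxed lung tumors for both.

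Both calls were lost when some single libraries were left out. Without the RPR2 lung tumor of JHK1394, the highest library for both genes and one of the 2 with high airway cell marker sums, neither passed, with differences of -1.92 for Itga3 and -1.63 for Itgb5 (limma adjusted p = 0.0918 and 0.116). Leaving out the JHK1373 lung tumor also ended both calls (-2.09 and -1.96, adjusted p = 0.0701 and 0.0818 by limma), as did leaving out the RPR2 metastasis of JHK1373 (-1.35 and -2.09, adjusted p = 0.232 and 0.137 by limma). Without the RPR2 metastasis of JHK1394, Itga3 passed and Itgb5 did not (-1.78, limma adjusted p = 0.225). Both differences stayed below 0 in each of the 22 alternative settings. A list of 12 general epithelial markers was also lower in RPR2 metastases, with 12 of 12 differences below 0 (59.6% of all genes). Its sum was 2925 to 4768 TPM in RPR2 lung tumors, 283 and 371 TPM in RPR2 metastases, 2404 to 3972 TPM in Nfib-floxed lung tumors and 2264 and 4078 TPM in Nfib-floxed metastases. In Nfib-floxed mice the median difference of that list was -0.08, beside -0.35 for Itga3 and -0.91 for Itgb5. The hepatocyte sums above were also highest in the RPR2 metastases. The neuroendocrine tumor sums above were lower in both RPR2 metastases than in every RPR2 lung tumor. Of those 9 markers, 5 had a difference below 0 and 4 above (median -0.80). The part of any of these lists in the 2 differences was not tested.

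Promoters of Itga3 and Itgb5, the 2 genes that passed, are given here as in RefSeq for GRCm38.p6. RefSeq held 2 promoters for Itga3 and 1 for Itgb5, and for Itga3 the one nearest the GENCODE start is shown. Only bases upstream of the start sites in both RefSeq and GENCODE are shown, 5' to 3' on the gene's strand. Capitals mark the E-box CAGGTG or its reverse complement, a motif that both promoters shown hold and that was chosen after the sequences were searched. The other Itga3 promoter lacks it. The GC box GGGCGG is also in both promoters shown and is not marked.
Itga3, chr11:95076802-95076964, minus strand: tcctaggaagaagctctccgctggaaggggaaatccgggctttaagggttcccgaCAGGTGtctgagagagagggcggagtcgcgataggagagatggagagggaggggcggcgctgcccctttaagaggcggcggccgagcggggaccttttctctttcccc
Itgb5, chr16:33829415-33829664, plus strand: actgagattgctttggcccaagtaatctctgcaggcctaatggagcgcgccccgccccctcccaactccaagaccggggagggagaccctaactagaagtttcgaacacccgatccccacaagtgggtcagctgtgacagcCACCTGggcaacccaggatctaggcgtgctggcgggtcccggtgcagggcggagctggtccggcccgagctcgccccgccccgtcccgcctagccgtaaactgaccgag
The window searched ran from 250 bases before to 50 after each start, on both strands, and the RefSeq table held 26 such promoters for 23 of the 36 genes. CAGGTG was in 8 of the 26, against 20.2% of all 32851 promoters in the table. The 8 belonged to Itga3, Itga9, Itga11, Itgb5, Itgb6, Itgb8, Lama5 and Lamb3. The GC box GGGCGG was in 12 of 26 (35.7% of all promoters), and 3 times in each of the windows of Itga3 and Itgb5 shown in part above. CCAAT was in 4 (37.4% of all), GGAATG in 3 (14.7%), TGAGTCA in 2 (5.2%) and TATAAA in 0 (13.6%). The palindrome of the NFI family, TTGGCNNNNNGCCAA, was in none of the 26 and in 0.0365% of all promoters. A match is a description of the letters only.

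Most of the family was lower in metastases, counting the 2 called genes. In RPR2 mice 21 of the 29 tested genes had a difference below 0, with a median of -0.62, against 59.6% of all genes and a median of -0.15. For 14 of the 29 the 2 metastases lay under all 3 lung tumors (31% of all genes did so), and for 2, Itga1 and Lama2, they lay above (15.1% of all genes). Over all 36 the counts were 15 and 4, but the 7 added genes had means under 1 TPM. No share of all genes was computed at that level. Itgb6, an epithelial subunit that pairs with Itgav and activates TGF-beta, was at 1.35 to 6.18 TPM in RPR2 lung tumors and 0.0477 and 0.0528 TPM in RPR2 metastases. The groups did not overlap, and the difference of -1.88 ± 0.53 had an adjusted p of 0.0689 by limma. Lamb3, a laminin beta chain of epithelia, had -2.35 ± 0.85 (adjusted p = 0.154), or -1.47 without the lung tumor of JHK1394, and Itgb3 -1.36 ± 0.51 (adjusted p = 0.174). Itga6 had -0.84 ± 0.33 (adjusted p = 0.194), or -0.42 without the metastasis of JHK1373.

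In Nfib-floxed mice 0 of 29 genes passed the adjusted threshold of limma for the tissue comparison, where 0.123% of all genes did. An unadjusted p under 0.05 was found for 7 of the 29 and for 1455 of the 15503 genes tested. Yet 27 of the 29 differences were below 0, with a median of -0.88, against 53.7% of all genes and a median of -0.05. For 15 the metastases lay under all lung tumors (14.8% of all genes) and for 0 above them (7.76%). Over all 36 these counts were 17 and 0, again with genes under 1 TPM and without a matching share of all genes. Across the alternatives that kept the 29 genes, 26 to 29 stayed below 0. The metastasis of JHK1398 was the lowest of the 10 libraries for 13 of the 29 genes, and for 14.1% of all genes. Without it, 29 of 29 differences were below 0.

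Markers of several other cell types were lower in the same metastases, but not those of all. All 9 endothelial markers had a difference below 0 in Nfib-floxed mice (median -1.27), with sums of 136 to 178 TPM in the lung tumors and 52.9 and 52.7 TPM in the metastases, and none was at 0 in any library. The same held for all 11 macrophage and monocyte markers (median -1.63) and all 7 club and ciliated cell markers (median -3.95, with sums of 1519 to 55061 TPM in lung tumors and 18.7 and 58.9 TPM in metastases). One club and ciliated marker was at 0 in the metastasis of JHK1398. Alveolar type 2 marker sums were 151 to 3026 TPM in the lung tumors and 28.0 and 47.0 TPM in the metastases, where 4 and 1 of the 6 markers were at 0. In RPR2 mice 8 of 9 endothelial, 11 of 11 macrophage and 7 of 7 club and ciliated markers were also below 0 (medians -0.61, -1.08 and -4.32). Other lists went the other way or were split. Hepatocyte markers were above 0 for 10 of 11 in Nfib-floxed and 11 of 11 in RPR2 mice, and erythroid ones for 6 of 6 in each. Fibroblast and mural cell markers were above 0 for 6 of 12 in Nfib-floxed and 10 of 12 in RPR2 mice. For neutrophil markers the counts were 1 of 6 and 6 of 6. The part of these cell types in the integrin and laminin differences was not tested.

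The smallest p in this comparison belonged to Itgav, an alpha subunit whose partners for binding RGD ligands include Itgb3, Itgb5, Itgb6 and Itgb8. It was at 103, 51.0 and 73.6 TPM in Nfib-floxed lung tumors and at 5.58 and 33.5 TPM in the metastases. Both metastases were below the lowest lung tumor. The difference was -2.29 ± 0.61 (limma adjusted p = 0.280). It was -1.10 without the metastasis of JHK1398 and -3.49 without that of JHK1399. In RPR2 mice Itgav was at 23.3, 39.4 and 27.2 TPM in lung tumors and 11.7 and 17.7 TPM in metastases, also without overlap. Itga8, Itga5 and Lama5 had -1.49, -1.67 and -1.50 in Nfib-floxed mice, with adjusted p values of 0.375, 0.488 and 0.441. Without the metastasis of JHK1398, Lama5 had -0.998.

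Within single mice the metastasis had the lower value for 19 of 29 genes in JHK1373 (65.5%), no more than the 65.95% of all genes tested that were lower in that mouse. In the other 3 mice the members' share was above that of all genes, with 22 genes in JHK1394 (75.9% against 49.8%), 26 in JHK1398 (89.7% against 44.2%) and 25 in JHK1399 (86.2% against 58.1%). In all 4 mice 13 of the 29 genes were lower in the metastasis, against 14% of all genes. They were Itga2b, Itga3, Itga7, Itga8, Itga9, Itgav, Itgax, Itgb3, Itgb4, Itgb5, Itgb6, Lama3 and Lamb3. None of the 29 was higher in the metastasis of all 4 mice.

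**Figure D3:**
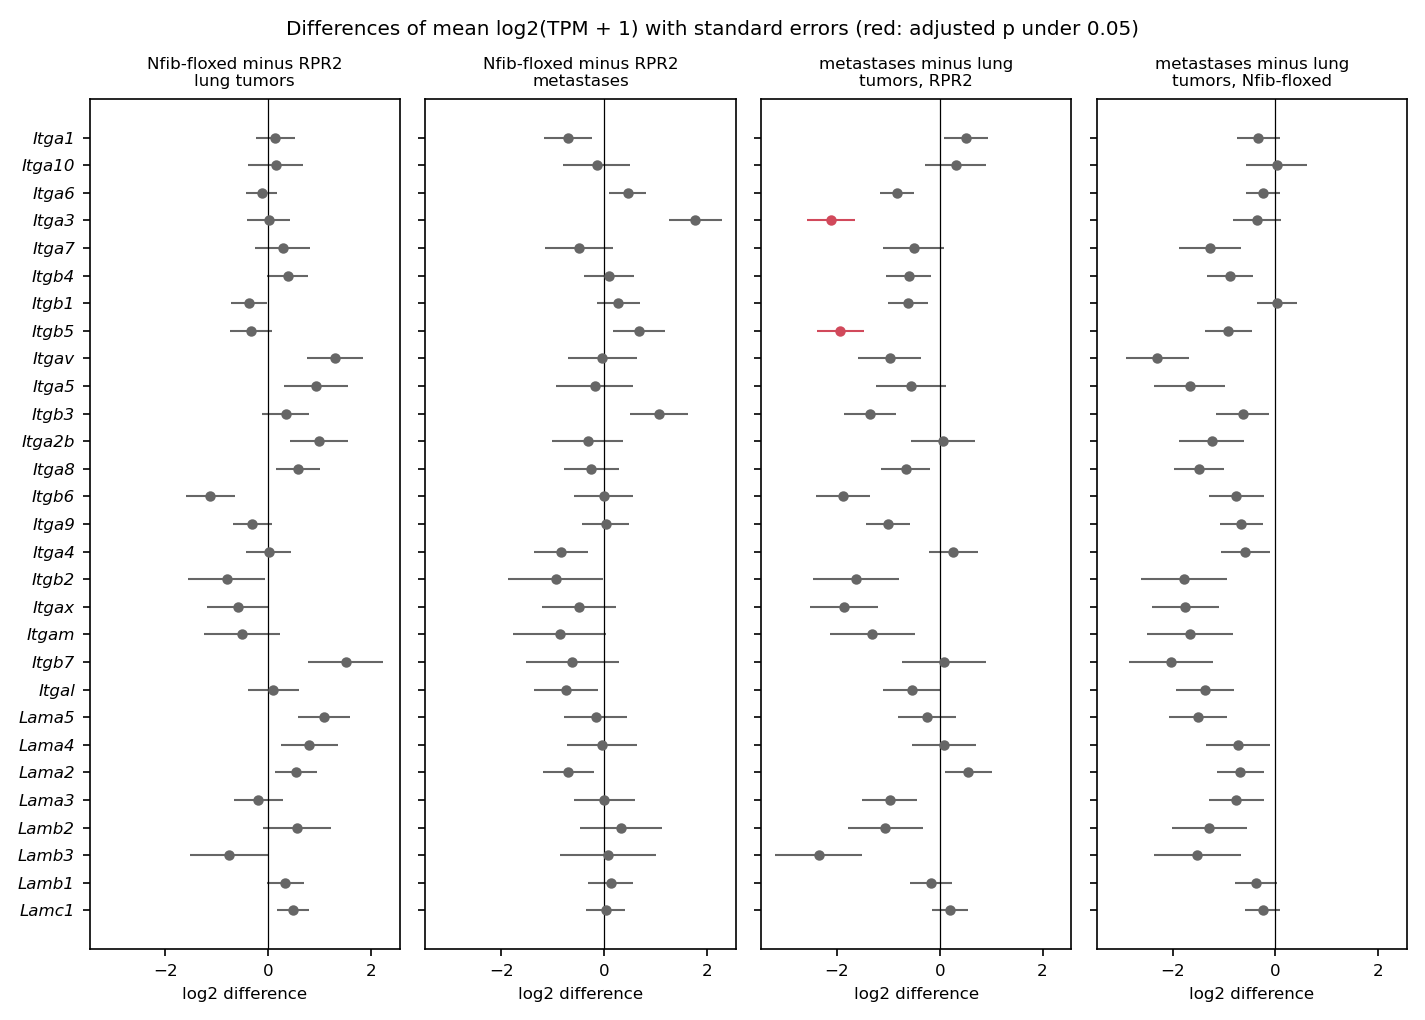
Differences of mean log2(TPM + 1) (points) with limma standard errors (bars) for the 29 tested genes in the 4 comparisons of groups; red points passed an adjusted p under 0.05. The 2 red points are Itga3 (-2.12) and Itgb5 (-1.94) in RPR2 mice, and in Nfib-floxed mice 27 of 29 points lie left of 0.

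Metastases of both genotypes were compared to see whether the Nfib allele went with a difference in the liver. By limma 0 of 29 genes passed, against 2.04% of all genes. An unadjusted p under 0.05 was found for 1988 of the 15503 genes tested and for 1 of the 29. This was Itga3, at 11.9 ± 8.9 TPM in RPR2 metastases against 38.3 ± 11 TPM in Nfib-floxed ones (SD, n = 2 each). Its difference was 1.78 ± 0.51 (limma adjusted p = 0.119), and both Nfib-floxed metastases lay above both RPR2 metastases. It was 1.01 without the RPR2 metastasis of JHK1373, the lowest library. The same held for Itgb5 (difference 0.68, 95% interval -0.43 to 1.78), Itgb3 and Itga6, so 4 of 29 genes were higher without overlap (23.8% of all genes). Another 6 of 29 were lower without overlap (22% of all genes): Itga1, Itga4, Itgam, Itgb7, Itgal and Lama2. With 2 libraries a side, separated values are common, as the background shares show. These metastases also differed in hepatocyte and epithelial marker sums, given above, whose part was not tested.

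The interaction asks whether the step from lung tumor to metastasis differed between genotypes. By limma 0 of 29 genes passed, against 0.581% of all genes. An unadjusted p under 0.05 was found for 1500 of the 15503 genes tested and for 1 of the 29. Itga3 had an interaction of 1.76 ± 0.66 (limma adjusted p = 0.377), or 0.998 without the RPR2 metastasis of JHK1373. For Itgb5 it was 1.02 (95% interval -0.41 to 2.45), or 0.616 without the Nfib-floxed lung tumor of JHK1399. The tissue difference of the 2 called genes was thus not shown to differ between genotypes.

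In the lung tumors themselves, 0 of 29 genes passed for the Nfib genotype, as did 0% of all genes by limma. An unadjusted p under 0.05 was found for 1230 of the 15503 genes tested and for 2 of the 29. Itgav was higher in every Nfib-floxed lung tumor than in any RPR2 one (75.8 ± 26 against 29.97 ± 8.4 TPM, SD, n = 3 each; 5.66% of all genes separated this way). Its difference was 1.29 ± 0.54 with an adjusted p of 0.613. Itgb6 was lower in every one (0.800 ± 0.43 against 3.31 ± 2.5 TPM; 8.81% of all genes), with -1.13 ± 0.47 and the same adjusted p of 0.613. Without the RPR2 lung tumor of JHK1394 it was -0.68. Among the genes too low to test, Itgb8, another partner of Itgav, was at 0.620 to 1.161 TPM in RPR2 lung tumors and 0.0332 to 0.383 TPM in Nfib-floxed ones. Itgb5, which also pairs with Itgav, overlapped between genotypes, with 63.0 ± 26 TPM for RPR2 against 50.1 ± 21 TPM for Nfib-floxed lung tumors.

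The most abundant laminin chain was Lama5, an alpha chain of epithelial and vessel basement membranes. It made up 72.1 to 90.0% of alpha chain TPM in every library. It was at 23.6, 30.7 and 35.6 TPM in RPR2 lung tumors, 106, 31.1 and 79.0 TPM in Nfib-floxed ones, 15.4 and 39.3 TPM in RPR2 metastases and 15.1 and 31.5 TPM in Nfib-floxed ones. The JHK1398 and JHK997 lung tumors stood above all others, while the JHK1399 lung tumor lay inside the RPR2 range. Lamc1, the most widely used gamma chain, had one of the narrowest ranges: 15.8, 28.5 and 26.2 TPM in RPR2 lung tumors, 35.8, 26.8 and 34.2 TPM in Nfib-floxed ones, and 22.6, 30.7, 25.9 and 27.9 TPM in the metastases. All 4 groups overlapped for Lamc1. Lamb2, the highest beta chain, was at 7.17, 23.9 and 8.66 TPM, then 20.0, 9.53 and 27.3 TPM in the lung tumors, and at 4.15, 6.02, 2.37 and 16.0 TPM in the metastases. Lamb1 was at 3.06 to 7.86 TPM, Lama4, a chain of vessel laminins, at 1.86 to 9.33 TPM and Lama2 at 0.551 to 2.91 TPM.

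Lama3 and Lamb3 are an alpha and a beta chain of epithelial basement membranes. Lama3 was at 0.163 to 3.91 TPM. Lamb3 was at 3.53, 27.3 and 3.58 TPM in RPR2 lung tumors, 7.72, 4.75 and 1.41 TPM in Nfib-floxed ones, 0.897 and 0.420 TPM in RPR2 metastases and 0.114 and 1.68 TPM in Nfib-floxed ones. It varied 240-fold between libraries, the widest range of the 29 genes tested. Lamb3 exceeded Lama3 in 9 libraries, by 1.04 to 6.996 times, and lay below it in the Nfib-floxed metastasis of JHK1398 (ratio 0.414). In the JHK1394 lung tumor both chains had their highest value. That library also had the highest sum of 6 alveolar type 2 cell markers, 7628 TPM against 151 to 3026 TPM in the other lung tumors. The part of those cells in the Lama3 and Lamb3 values was not tested.

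**Figure D4:**
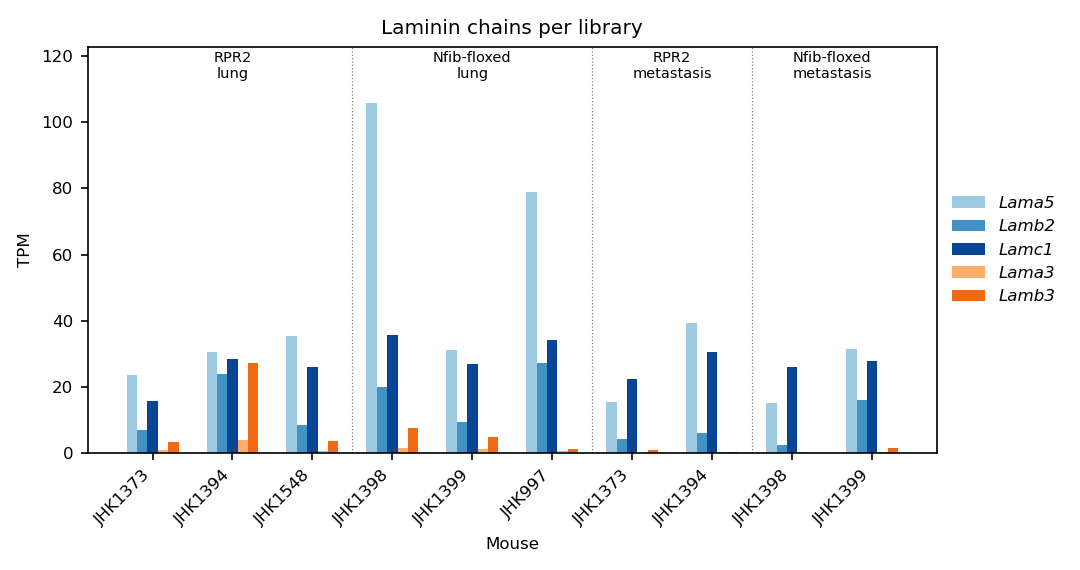
TPM of 5 laminin chains (bars) in each of the 10 libraries, in blue for Lama5, Lamb2 and Lamc1 and in orange for Lama3 and Lamb3. Lamb3 reaches 27.3 TPM in the JHK1394 lung tumor and is at 0.897 and 0.420 TPM in the RPR2 metastases, while Lamc1 stays between 15.8 and 35.8 TPM in all libraries.

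The summed level of the 7 leukocyte integrin subunits was highest in the 2 libraries with the highest macrophage marker sums, but not every subunit peaked there. Itgb2, the beta subunit shared by the CD11 receptors, was at 8.69, 79.1 and 10.7 TPM in RPR2 lung tumors, 17.0, 9.23 and 8.15 TPM in Nfib-floxed ones, 9.52 and 3.29 TPM in RPR2 metastases and 1.61 and 3.68 TPM in Nfib-floxed ones. The JHK1394 lung tumor was far above every other library. It was also the highest library for Itgax, Itgam and Itgal, the CD11c, CD11b and CD11a subunits that pair with Itgb2. The 7 leukocyte subunits summed to 159 TPM there and 79.6 TPM in the JHK1398 lung tumor, against 23.7 to 34.1 TPM in the other lung tumors. In metastases the sums were 25.8 and 11.4 TPM (RPR2) and 5.93 and 11.5 TPM (Nfib-floxed). A list of 11 macrophage and monocyte markers summed to 5732 and 1945 TPM in those 2 lung tumors, 818 to 1558 TPM in the other 4, 853 and 383 TPM in RPR2 metastases and 281 and 424 TPM in Nfib-floxed ones. Lyz2 alone gave 3606 of the 5732 TPM in the JHK1394 lung tumor, and 168 to 537 TPM in the other lung tumors. No marker of that list was at 0 in any library, and the part of the list in the leukocyte integrin values was not tested.

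None of the 5 leukocyte subunits tested passed in either tissue comparison. In Nfib-floxed mice all 5 were lower in both metastases than in every lung tumor, as were 14.8% of all genes. There Itgax had -1.75, Itgb7 -2.03 and Itgal -1.38 with limma adjusted p values of 0.443, 0.487 and 0.488. Without the lung tumor of JHK1398, Itgb7 had -1.17. Itgb7, the partner of Itga4 and Itgae on lymphocytes, peaked in another library than Itgb2, at 23.6 TPM in the JHK1398 lung tumor against 0.220 to 4.06 TPM elsewhere. That tumor also had the highest sum of 6 B and plasma cell markers, 679 TPM against 3.49 to 428 TPM. Itgae was also highest there, at 2.09 TPM. Itgad was highest in the RPR2 metastasis of JHK1373, at 1.76 TPM, and was listed at 0 in both libraries of JHK1398. Without the leukocyte list, 14 of the remaining 16 integrin subunits were below 0 in Nfib-floxed mice (53.7% of all genes). In RPR2 mice 12 of 16 were (59.6% of all genes).

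**Figure D5:**
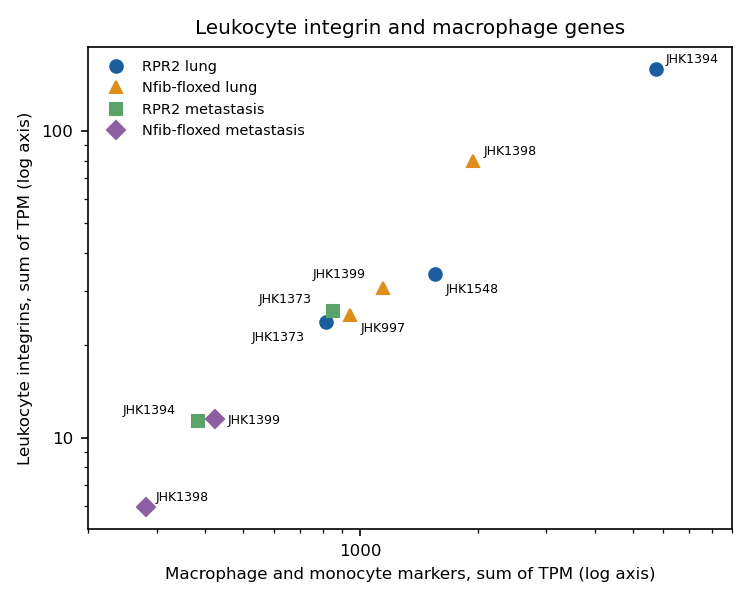
Sum of TPM of the 7 leukocyte integrin subunits against the sum of 11 macrophage and monocyte markers (both log axes), 1 point per library labelled by mouse, with symbols for the 4 groups. The lung tumors of JHK1394 and JHK1398 are highest on both axes, at 159 and 79.6 TPM of integrins, and the Nfib-floxed metastasis of JHK1398 is lowest on both.

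Genes that act with integrins and laminins were counted on 4 lists. Over all genes in the tissue comparison of RPR2 mice, for reading these counts, 3.57% were called lower and 2.04% higher, 59.6% lay below 0 and the median was -0.15. Of 35 tested integrin activators and adhesion-site proteins, 4 were lower in RPR2 metastases than in RPR2 lung tumors and 0 higher, and 22 had a difference below 0 (median -0.04). They were Fermt1, the epithelial kindlin that activates integrins (8.92 ± 4.4 to 0.434 ± 0.25 TPM, difference -2.69, adjusted p = 0.0217), Ptk2b, a focal adhesion kinase (31.9 to 4.03 TPM, -2.62), Tns3 (50.3 to 11.1 TPM, -2.04) and Actn1, which links integrins to actin (160 to 37.1 TPM, -2.05). Between metastases of the 2 genotypes, Actn1 was higher in the Nfib-floxed ones (173 TPM, 2.11, adjusted p = 0.0355 by limma). Parvb, an adaptor at adhesion sites, was lower there (32.9 in RPR2 to 2.82 TPM in Nfib-floxed metastases, -2.97, adjusted p = 0.0198). In the other 3 comparisons 0 of 35 passed. The smallest unadjusted p values belonged to Fermt1 (9.81 in lung tumors and 0.653 TPM in metastases) and Apbb1ip (3.45 and 0.589 TPM) for tissue in Nfib-floxed mice, Sharpin (53.9 in RPR2 and 110 TPM in Nfib-floxed) and Parvb (9.997 and 3.96 TPM) for lung genotype, and Actn1 and Parvb for the interaction.

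Of 9 tested hemidesmosome and laminin-receptor partners, 2 were lower in RPR2 metastases and all 9 had a difference below 0 (median -0.98). Cd9, a tetraspanin that binds integrins, was at 1796, 3762 and 1797 TPM in RPR2 lung tumors and 181 and 543 TPM in RPR2 metastases. The groups were far apart (-2.87 ± 0.54, limma adjusted p = 0.0113). It was higher in Nfib-floxed metastases, at 2112 and 4422 TPM, than in RPR2 ones (3.28 ± 0.59, adjusted p = 0.0212 by limma). Bcam, a receptor for Lama5-containing laminins, went from 131 to 26.6 TPM in RPR2 mice (-2.55, adjusted p = 0.0226 by limma). In the other comparisons 0 of 9 passed. The smallest unadjusted p values were those of Sdc1 (51.0 in lung tumors and 19.6 TPM in metastases) and Cd151 (126 and 58.7 TPM) in Nfib-floxed mice, of Dst (63.4 in RPR2 and 177 TPM in Nfib-floxed) and Cd9 (2452 and 3977 TPM) in lung tumors, and of Cd9 and Bcam for the interaction.

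Of 16 tested basement membrane partners and other integrin ligands, 1 was lower and 2 higher in RPR2 metastases, and 7 had a difference below 0 (median 0.22). Ntn4, a laminin-related netrin that disturbs laminin networks, was at 151, 213 and 146 TPM in RPR2 lung tumors and 38.5 and 31.95 TPM in RPR2 metastases. It was at 104, 43.8 and 94.1 TPM in Nfib-floxed lung tumors and 106 and 141 TPM in Nfib-floxed metastases. The RPR2 metastases were the lowest 2 of the 10 libraries, and in Nfib-floxed mice both metastases were above every lung tumor. The tissue difference in RPR2 mice was -2.22 ± 0.38 (limma adjusted p = 0.00797), and the interaction of 2.91 ± 0.54 passed too (adjusted p = 0.0459 by limma). The interaction stayed above 2.5 but passed in only 6 of 21 alternatives, with adjusted p values of 0.0407 to 0.183. Vtn, vitronectin, the ligand of Itgav with Itgb5 and a product of liver cells, rose from 9.32 to 193 TPM in RPR2 mice (4.32, adjusted p = 0.00559 by limma), beside the hepatocyte sums given above. Fbln1, a fibulin of basement membranes, rose from 3.53 to 46.6 TPM (3.63, adjusted p = 0.0385 by limma).

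In the other 3 comparisons 0 of these 16 ligands passed. The smallest unadjusted p values belonged to Fn1, fibronectin (109 in lung tumors and 33.7 TPM in metastases), and Vtn (6.797 and 42.2 TPM) in Nfib-floxed mice, to Ntn4 (170.1 in RPR2 and 80.7 TPM in Nfib-floxed) and Nid2 (1.27 and 3.63 TPM) in lung tumors, and to Ntn4 (35.2 and 123 TPM) and Fbln1 (46.6 and 4.37 TPM) in metastases. Of 8 tested counter-receptors of leukocyte integrins, 1 was lower in RPR2 metastases: F11r, the junction protein that binds Itgal with Itgb2 (142 to 27.4 TPM, -2.38, adjusted p = 0.00476 by limma). In the other 4 comparisons 0 of 8 passed. There the smallest unadjusted p values were those of F11r and Icam5 for lung genotype, F11r and Vcam1 for metastasis genotype, Icam1 (20.0 in lung tumors and 3.53 TPM in metastases) and Icam2 (6.88 and 3.18 TPM) for tissue in Nfib-floxed mice, and F11r and Jam3 for the interaction.

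Most of the 14 calls on these 4 lists were lost when 1 library was left out, with differences that kept their direction. Without the RPR2 metastasis of JHK1373, 12 of the 14 were lost and Vtn and F11r in RPR2 mice were kept. Of the 12, Bcam moved furthest (-2.55 to -1.47), while Ptk2b had -2.67, Actn1 -2.20 and Fbln1 3.78 in RPR2 mice, each slightly larger than with that library. In all, 9 calls were lost without the RPR2 metastasis of JHK1394 and 7 without the RPR2 lung tumor of JHK1394. F11r passed in all 22 alternatives. With mouse as a fixed block, Fermt1 (-2.39, adjusted p = 0.0697), Ptk2b (-2.94, adjusted p = 0.0585) and the Ntn4 interaction (3.17, adjusted p = 0.172) did not pass by limma.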

How the data were processed

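Gene expression was measured by polyA RNA sequencing in 10 libraries of 6 mice, grouped by the labels' genotype, tissue and mouse tag. The authors deposited 1 table of TPM values per gene. Per the submitters' processing notes it was made with bcl2fastq 2.20, Salmon 0.12.0, R 4.1.0 and build GRCm38. The sources used here do not give strand handling, so antisense partners cannot be told apart, and Salmon's shares among similar transcripts are uncertain. A TPM table carries no sequencing depth, which is therefore unknown, and counting error cannot be given.

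Differences were tested with limma 3.58.1 (R 4.3.3) on log2(TPM + 1), two-sided, in 1 model of 4 groups with a mean trend, for the 15503 genes whose mean over libraries reached 1 TPM. The fit had 6 residual and 4.56 prior degrees of freedom. The threshold was a Benjamini-Hochberg adjusted p under 0.05 over all genes tested, and 95% intervals use the moderated variance. The code was tested on simulated data. Positions are those of GENCODE M21, promoters those of RefSeq GRCm38.p6. Python 3.11.15 with pandas 2.3.3 and matplotlib 3.10.9 made the other values.

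Members and lists (8 by role, 4 of pathway genes, 17 of cell types) were chosen with earlier results of these data known. Of the 37 genes that the symbol rule finds, 1 is not reported here. Every library's value is given for members past the threshold and for the highest of each role list. Pathway genes are named where called, at most 4 per list, or as the 2 of smallest p. Which genes were followed through the alternatives was chosen after their values were seen. The mouse tags give 4 mice both tissues, which pairs those samples by design. Within these pairs, residuals around group means had correlations of -0.023, -0.008, 0.043 and 0.049 over 15503 genes. Other settings tried were pseudocounts 0.1 and 5, a 5 TPM filter, all genes unfiltered, median centring, quantile normalization, rescaling without cell type genes, robust moderation, mouse as a random or fixed block, the compared groups alone, and leaving out libraries.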

Additional observations from a re-analysis of the deposited data

Results flagged for a closer look

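Ntn4 was the only gene among the integrin and laminin genes and the 4 lists of their partners whose tissue difference differed between genotypes past the threshold. Its interaction was 2.91 on the log2(TPM + 1) scale (limma adjusted p = 0.0459): lower in RPR2 metastases than lung tumors, and higher in Nfib-floxed metastases than lung tumors without passing there. Both RPR2 metastases (38.5 and 31.95 TPM) were the lowest libraries for Ntn4. The interaction kept its sign in 21 alternatives and passed in 6 of them.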

How the results depend on the processing

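For 37 gene differences followed through 799 alternative fits, 711 kept direction and side of the threshold, 87 lost the call, 1 gained it (Itgb6 in RPR2 mice at a pseudocount of 0.1, -4.24) and 0 changed sign. Of the 2 genes called in RPR2 metastases, 0 passed with no filter (36 genes of the family tested), 1 with quantile normalization, 1 with median centring, 1 with the 2 compared groups alone, and 0 without the lung tumors of JHK1394 and JHK1398. Leaving out single libraries gave 0 to 2. The causes were not tested. Under the fixed replicate block 2 passed (Itga3 -2.35, Itgb5 -2.22), and the random block (correlation 0.0509) changed no call. In the other 4 comparisons 0 members passed under every alternative run. A group left with 1 library was assumed to vary like the others. With the pseudocount of 1, low genes such as Itgb6, Lama3 and Itgb4 have little room to fall. Quantile normalization and median centring moved the median difference of all genes in RPR2 mice from -0.15 to 0.05 and 0.09. Against that, 20 of 29 genes of the family stayed below 0 in both, and their medians were -0.35 and -0.37. The split of all calls in RPR2 mice, 316 higher and 553 lower, became 407 and 408 with quantile normalization and 394 and 382 with median centring.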
